A study of Mus musculus with 12 samples.

Results

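The data describe 10 integrin subunit genes of leukocytes in mouse bone marrow-derived macrophages (BMDMs), out of 23361 gene symbols in the expression tables. The members are 7 alpha subunits (Itgal, Itgam, Itgax, Itga4, Itga5, Itga6 and Itgav) and 3 beta subunits (Itgb1, Itgb2 and Itgb5). They were chosen by name from the deposited tables, with no measured value in the rule, and all 10 had a row and reached the expression minimum of 1 FPKM (fragments per kilobase of transcript, scaled to all mapped fragments) in at least 1 of 12 samples. A total of 11191 of 23847 rows reached it.

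Integrins are adhesion receptors of the cell surface, each built from 1 alpha and 1 beta chain that assemble before they leave the endoplasmic reticulum. The beta 2 chain, Itgb2 or CD18, is the common partner of the leukocyte alpha chains Itgal (CD11a), Itgam (CD11b) and Itgax (CD11c). The beta 1 chain pairs with alpha 4, alpha 5 and alpha 6 and binds VCAM-1, fibronectin and laminin, and alpha v with beta 5 binds vitronectin. In macrophages these receptors serve adhesion, migration and the uptake of opsonized particles, and they are held inactive until talin and kindlin bind the beta tail.

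Poly-A RNA was sequenced from wild-type macrophages of mice aged 8 to 12 weeks, on the C57BL/6 background. Marrow cells were differentiated for 6 days in L929 supernatant, a source of M-CSF, so all 4 groups share that culture and no group carries a deletion. The groups were an untreated control, IL-4 at 20 ng/ml for 24 h, lipopolysaccharide (LPS) at 100 ng/ml for 3 h, and IL-4 pretreatment for 24 h followed by LPS for 3 h (IL-4+LPS), with 3 samples each. The study describes such samples as individual animals from independent experiments, and the labels number them without tying a sample to an animal or experiment, so the p-values measure the spread between these samples.

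The treatments showed in their marker genes. Retnla, an IL-4 target of macrophages, was at 5.91, 19.5 and 8.74 FPKM in the control samples and at 11617, 11878 and 13029 FPKM after IL-4. Tnf, an early LPS target, was at 11.8, 19.0 and 16.5 FPKM in the control and at 1313, 1416 and 1357 FPKM after LPS. Of 7 listed macrophage markers 6 had a row, and their summed FPKM was between 18979 and 20378 in the control, between 7416 and 7625 after IL-4, between 15296 and 16467 after LPS and between 6445 and 6797 after IL-4+LPS. Lyz2 made up most of each sum, at between 15344.5 and 16507.2 FPKM in the control and between 4734 and 5051 FPKM after IL-4. The lowest single value among the 6 was 9.19 FPKM, of Mertk. Listed lymphocyte and fibroblast markers summed to at most 0.394 and 0.19 FPKM. Neutrophil markers (5 of 6 with a row) summed to between 211 and 975 FPKM, nearly all of it S100a8 and S100a9. Over the 12 samples Mpo was between 1.75 and 8.29 FPKM and Elane between 1.52 and 6.96 FPKM, and Cxcr2 stayed at or under 0.414 FPKM. FPKM totals per sample were between 457583 and 495025, and the relative depth read from the smallest steps of the values was between 0.991 and 3.30 with the first control sample at 1. Replicate 1 stood apart in all 4 groups on the first principal component of the deviations from the group means, which held 28.2% of their variance, and it also held the lowest S100a8 and S100a9 values of each group.

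Itgal, Itgam and Itgax lie on chromosome 7 on the plus strand of mm10, at 127296260 to 127335137, 128062640 to 128118491 and 128129568 to 128150657. A gap of 727.5 kb separates Itgal from Itgam, and only 11.1 kb separates Itgam from Itgax. Another beta 2 partner, Itgad, starts 23.3 kb further on. The 250 bases upstream of the annotated starts of the adjacent Itgam and Itgax are shown because the transcripts of these neighbors moved in opposite directions under IL-4. They come from RefSeq on GRCm38.p6 (mm10), plus strand, 5′ to 3′, at chr7:128062390-128062639 and chr7:128129300-128129549. Capitals mark matches on either strand to the PU.1 core GAGGAA in Itgam and to the STAT-type word in Itgax, TTC and GAA with a spacing of 4 bases.
Itgam: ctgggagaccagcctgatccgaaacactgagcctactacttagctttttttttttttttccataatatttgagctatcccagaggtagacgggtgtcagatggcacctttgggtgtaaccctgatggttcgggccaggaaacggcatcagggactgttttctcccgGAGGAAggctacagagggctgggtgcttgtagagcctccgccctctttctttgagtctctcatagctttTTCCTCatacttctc
Itgax: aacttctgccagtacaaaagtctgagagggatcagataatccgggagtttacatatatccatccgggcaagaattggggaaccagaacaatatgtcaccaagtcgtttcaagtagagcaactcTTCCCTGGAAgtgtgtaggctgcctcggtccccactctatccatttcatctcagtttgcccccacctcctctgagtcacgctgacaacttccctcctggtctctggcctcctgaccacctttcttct

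Positions are counted backward from -1, the base just before the RefSeq start. In Itgam the PU.1 core was matched at -84 to -79 on the plus strand and at -15 to -10 on the minus strand. In Itgax the STAT-type word with a spacing of 4 was matched at -127 to -118. Of 32851 mouse promoters of the same length, 23.25% held the PU.1 core and 5.85% the STAT-type word with a spacing of 4. The search on both strands also covered the STAT-type word with a spacing of 3, found in 7.02% of promoters, and an NF-kB word, GGG and TTTCC with a spacing of 2, found in 1.41%. Neither word occurred in the 7 members with an entry. Besides Itgam, the PU.1 core occurred in Itga5, Itgav and Itgb1, and Itga4 and Itgb5 held none of the 4 words. Itgal, Itga6 and Itgb2 had no entry. The matches did not overlap each other. A match describes letters in this window and is not a binding site.

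Itgax showed the largest response to IL-4 of the 10 members. Itgax encodes CD11c, which with CD18 forms complement receptor 4. Its values were 43.1, 25.7 and 27.6 FPKM in the control and 345, 308 and 298 FPKM after IL-4. After LPS alone they were 33.5, 20.97 and 20.86 FPKM, and after IL-4+LPS 363, 297 and 308 FPKM. The 6 samples with IL-4 were all at least 297 FPKM and the 6 without it at most 43.1 FPKM. On the log2(FPKM + 1) scale IL-4 raised Itgax by 3.30 against the control (SE 0.21, limma adjusted p = 1.57e-06) and by 3.66 in LPS-exposed cells (adjusted p = 8.92e-07). Only 0.42% of the 11191 tested rows changed more in the first of these comparisons. In bulk samples, more cells that carry a transcript and more transcript per cell cannot be told apart. CD11c is also a dendritic cell marker. Of the listed dendritic cell markers, Flt3 and Cd209a stayed at or under 0.73 FPKM in all 12 samples. Zbtb46 was at most 0.136 FPKM in the control, between 0.166 and 0.474 FPKM after IL-4 alone (adjusted p = 0.0558) and between 1.94 and 2.83 FPKM after IL-4+LPS. The 4 listed dendritic cell markers summed to at most 1.70 FPKM in the control and 1.18 FPKM after IL-4, and to at most 2.52 FPKM after LPS and 3.55 FPKM after both. Their part in the Itgax rise was not tested.

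LPS gave Itgax no passing change in the group-means fit in either setting. The difference was -0.34 without IL-4 (95% interval -0.81 to 0.13, adjusted p = 0.167) and 0.02 after IL-4 (-0.44 to 0.49, adjusted p = 0.926). The first became 0.02 with samples scaled to a common median, and it passed as a fall of -0.56 without LPS replicate 1 (adjusted p = 0.023), the highest of the 3 LPS samples. The pattern most like Itgax over the 12 samples was that of its neighbor Itgad (Pearson r = 0.998), an alpha D chain that also pairs with CD18. Itgad rose from 2.63, 1.64 and 1.47 FPKM in the control to 18.83, 16.03 and 16.05 FPKM after IL-4. Itgax and Itgad share sequence, with 9.61% of 50-base words of the Itgax transcript found in other genes, chiefly Itgad, and 15.2% of the Itgad words found mainly in Itgax. How the authors' counting split such reads is not stated. Next in likeness were 6330416G13Rik (r = 0.986) and Plekhg1 (r = 0.986). These are descriptions over 12 samples that share 4 conditions.

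Itgal moved the opposite way, falling with IL-4 and rising with LPS. Itgal encodes CD11a, the alpha chain of LFA-1, the receptor for ICAM-1. Its values were 6.09, 6.92 and 7.42 FPKM in the control and 0.884, 1.09 and 0.723 FPKM after IL-4. After LPS they rose to 47.6, 39.7 and 44.4 FPKM, and after IL-4+LPS to 17.8, 21.9 and 23.0 FPKM. The 4 groups did not overlap. The LPS difference was 2.52 on the log2(FPKM + 1) scale without IL-4 (SE 0.12, adjusted p = 2.97e-08) and 3.53 after IL-4 (adjusted p = 3.81e-09). The latter LPS difference was larger by 1.00 (interaction, SE 0.17, adjusted p = 0.00402). Even so the IL-4+LPS level stayed below that of LPS alone (-1.04, adjusted p = 8.25e-05), and the IL-4 level lay below the control (-2.04, adjusted p = 7.74e-07). As the IL-4 values lie near 1 FPKM, these log2 differences understate the fold changes, and the ratio of means was 0.132 for IL-4 against control and 6.45 for LPS against control. Tlr2, the receptor for bacterial lipoproteins, had the pattern most like Itgal (r = 0.997), followed by Ampd3 (r = 0.992) and Adrbk2 (r = 0.99).

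Itgam fell modestly with IL-4. Itgam encodes CD11b, the alpha chain of Mac-1 or complement receptor 3, which binds iC3b. It was at 255, 221 and 227 FPKM in the control and at 181, 160 and 155 FPKM after IL-4. After LPS it was at 230, 172 and 174 FPKM, and after IL-4+LPS at 157, 122 and 127 FPKM. The IL-4 difference was -0.50 on the log2(FPKM + 1) scale (SE 0.13, adjusted p = 0.0134) and -0.49 in LPS-exposed cells (adjusted p = 0.0159), with no overlap of the groups in either. The first did not pass without IL-4 replicate 3 (adjusted p = 0.0526). The second did not pass without IL-4+LPS replicate 2 or 3 (adjusted p = 0.0634 and 0.0584), or with only the compared groups in the fit (adjusted p = 0.0708). The LPS groups overlapped with their references, at -0.29 without IL-4 (adjusted p = 0.0637) and -0.29 after it (adjusted p = 0.0679). Under median scaling both turned positive, at 0.07 and 0.07, while quantile normalization gave falls of -0.48 and -0.40 that passed (adjusted p = 0.0169 and 0.0398). Most of the Itgam transcript, 72.4% of its 50-base words, is shared with other genes, chiefly Gm49368, an annotated gene on the same strand that covers 68.7% of its exon bases. How the authors' counting treated such reads is not stated. The Itgam level, and the shares and ratios that use it, are therefore uncertain by an unknown amount. The genes most like it were Tmcc1 (r = 0.99), Ubap1 (r = 0.989) and Ttbk2 (r = 0.983).

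Itgb2, the shared partner of these chains, rose with IL-4 and fell with LPS. The Itgb2 gene lies on chromosome 10 at 77530348 to 77565674. It was the most abundant member in each group, at 457, 441 and 441 FPKM in the control and 719, 764 and 727 FPKM after IL-4. The LPS samples were the lowest, at 303, 290 and 287 FPKM, and the IL-4+LPS samples lay between control and IL-4 at 646, 539 and 572 FPKM. IL-4 raised it by 0.72 on the log2(FPKM + 1) scale (SE 0.07, adjusted p = 2.77e-05) and by 0.99 in LPS-exposed cells (adjusted p = 3.06e-06). LPS lowered it (-0.60, adjusted p = 1.88e-05), a difference of -0.16 from the median of all tested rows, which itself was -0.44. After IL-4 the LPS difference was -0.33 (adjusted p = 0.00143), but 0.03 with median scaling (adjusted p = 0.709). Ifi30 (r = 0.994), Tbxas1 (r = 0.992) and Il11ra1 (r = 0.991) were most like Itgb2.

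**Figure D1:**
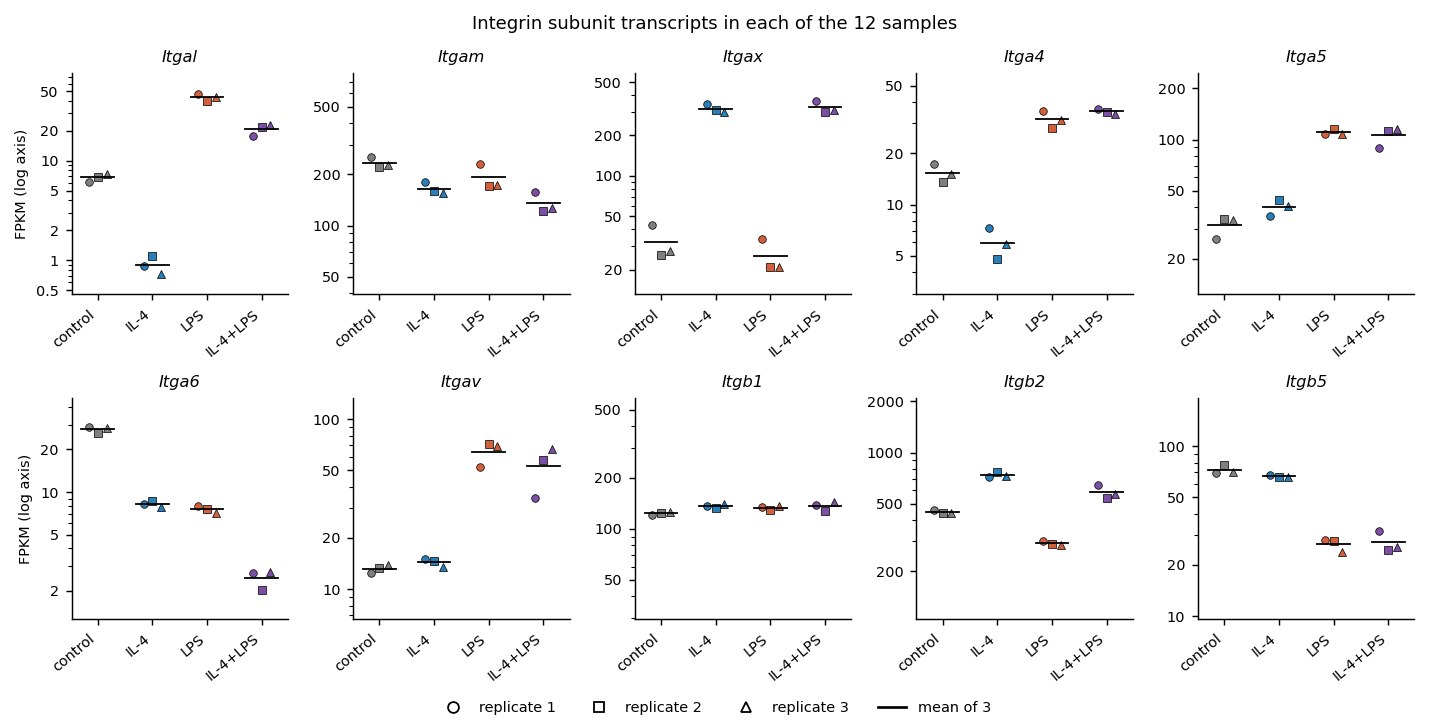
FPKM on a log axis of each of the 10 subunits in the 12 samples by group, with 1 symbol per replicate and a line at the mean of 3. Itgax separates the 6 samples with IL-4 from the 6 without, Itgal separates all 4 groups, and Itgb1 stays between 120.8 and 143.0 FPKM.

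Among the members that pair with beta 2, the main alpha transcript switched with IL-4. Itgad is not a member and is left out of these shares, though its mean after IL-4 was 17.0 FPKM, against 0.899 FPKM for Itgal. As a share of the summed FPKM of Itgal, Itgam and Itgax, Itgam held 85.8% ± 1.78 (SD, n = 3) in the control and 34.2% ± 0.095 after IL-4. Itgax went from 11.6% ± 2.22 to 65.6% ± 0.072. Itgal held 2.53% ± 0.452 in the control, 0.187% ± 0.04 after IL-4 and 17.0% ± 1.64 after LPS. In the LPS samples Itgam kept 73.5% ± 0.719 and Itgax 9.50% ± 1.11. In the IL-4+LPS samples Itgax held 67.4% ± 0.139, Itgam 28.2% ± 0.871 and Itgal 4.44% ± 0.973. FPKM is per length of transcript, so these shares compare transcripts and not proteins.

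**Figure D2:**
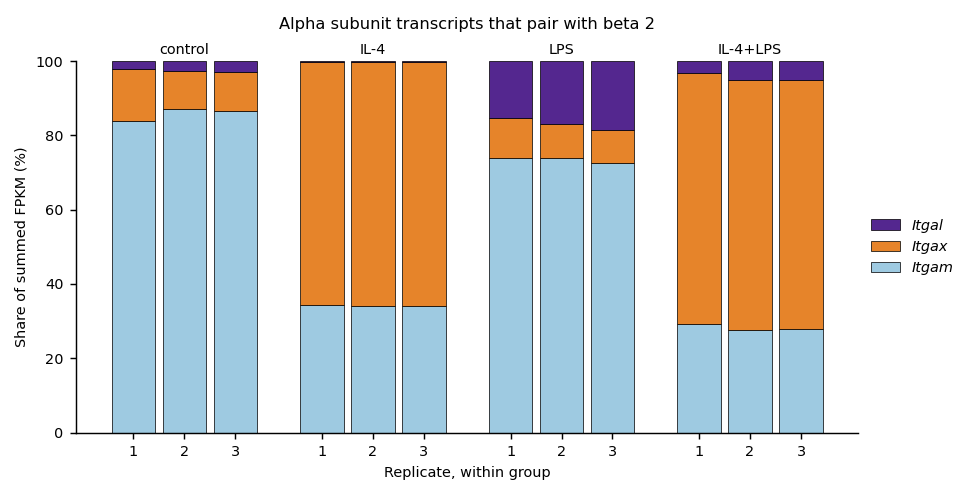
Share in percent of the summed FPKM of Itgal, Itgam and Itgax in each of the 12 samples, as stacked bars from 0 to 100. Itgam is the largest share in every control and LPS sample, at 72.7% or more, and Itgax in every sample with IL-4, at 65.5% or more.

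A ratio of transcripts within a sample does not depend on how samples are scaled, and 7 such ratios were tested for each treatment (14 tests, two-sided exact permutation within strata of the other treatment, smallest possible p = 0.005). The Itgax to Itgam ratio was between 0.117 and 0.169 in the control and between 1.91 and 1.92 after IL-4. It was between 0.12 and 0.146 after LPS and between 2.31 and 2.44 after IL-4+LPS. IL-4 raised its log2 by 4.03 (exact permutation p = 0.005, adjusted p = 0.01) and LPS by 0.13 (exact permutation p = 0.24, adjusted p = 0.28). Without control replicate 1 the latter came to 0.21 and passed (adjusted p = 0.0389). The Itgal to Itgam ratio changed in log2 by 3.91 with LPS and by -1.51 with IL-4 (both exact permutation p = 0.005, adjusted p = 0.01). These are means over the 2 settings of the other treatment. The LPS difference was 2.985 without IL-4 and 4.84 with it, and the IL-4 difference was -2.435 without LPS and -0.58 with it. The contrast between settings was not tested as a ratio.

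Summed over Itgal, Itgam and Itgax, without Itgad, the ratio to Itgb2 was between 0.575 and 0.665 in the control. It was between 0.615 and 0.732 after IL-4, 0.803 and 1.03 after LPS, and 0.801 and 0.834 after IL-4+LPS. Its log2 was higher with LPS by 0.43 (exact permutation p = 0.005, adjusted p = 0.01), with no overlap between samples with and without LPS. For IL-4 the log2 difference was -0.0039 (exact permutation p = 0.97, adjusted p = 0.97), from 0.10 without LPS and -0.11 with it, and it turned positive without any 1 of 5 samples (0.0034 to 0.0511).

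Among the alpha chains that pair with beta 1, Itga4 and Itga5 rose with LPS and Itga6 fell. Itga4 (CD49d, alpha 4 of the VCAM-1 receptor VLA-4) lies on chromosome 2 at 79255426 to 79333114. It was at 17.3, 13.5 and 15.1 FPKM in the control, 7.28, 4.79 and 5.84 FPKM after IL-4, 35.7, 28.2 and 31.6 FPKM after LPS, and 36.6, 35.2 and 34.1 FPKM after IL-4+LPS. The last 2 groups overlapped and the other pairs did not. LPS raised it by 1.01 on the log2(FPKM + 1) scale without IL-4 (SE 0.14, adjusted p = 5.51e-05) and by 2.40 after IL-4 (adjusted p = 1.36e-07), a difference of 1.39 between the responses (SE 0.19, adjusted p = 0.00156). IL-4 alone lowered it (-1.24, adjusted p = 6.39e-05), and among LPS-exposed cells the IL-4 difference was 0.15 (95% interval -0.15 to 0.45, adjusted p = 0.449). Exons of the antisense gene Cerkl overlap 8.04% of the Itga4 exon bases, and whether the counting used strand is not stated.

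Itga5, the alpha chain of the classical fibronectin receptor, maps to the minus strand of chromosome 15 (103344286 to 103366748). Its values were 26.0, 34.3 and 33.6 FPKM in the control, 35.4, 44.2 and 40.7 FPKM after IL-4, 108, 116 and 108 FPKM after LPS, and 89.8, 113 and 116 FPKM after IL-4+LPS. LPS raised it by 1.80 (SE 0.13, adjusted p = 6.3e-07) and, after IL-4, by 1.38 (adjusted p = 5.04e-06). The IL-4 samples lay above the control samples, but the difference of 0.35 did not pass (adjusted p = 0.0561), while it passed under median scaling (0.37, adjusted p = 0.0456) and quantile normalization (0.36, adjusted p = 0.0334).

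Itga6, a laminin-binding alpha chain on chromosome 2 at 71787083 to 71856758, fell with each treatment. It was at 28.9, 26.1 and 28.3 FPKM in the control, 8.18, 8.62 and 7.90 FPKM after IL-4, 8.03, 7.54 and 7.06 FPKM after LPS, and 2.66, 2.02 and 2.73 FPKM after IL-4+LPS. Control samples were the highest and IL-4+LPS samples the lowest, with no overlap of either with the rest. The falls were -1.75 for LPS (SE 0.09, adjusted p = 6.84e-08) and -1.64 for IL-4 (adjusted p = 6.41e-07). They were -1.42 for LPS after IL-4 (adjusted p = 3.28e-07) and -1.30 for IL-4 in LPS-exposed cells (adjusted p = 2.89e-06). Itga6 was the only member that passed as lower in all 4 comparisons. Its interaction of 0.33 did not pass (adjusted p = 0.142), and passed with quantile normalization (0.59, adjusted p = 0.0137) and without IL-4+LPS replicate 2 (0.43, adjusted p = 0.0434).

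Itgb1, the partner of these chains, stayed within a narrow range. The gene lies on chromosome 8 at 128685654 to 128733579. It was at 120.8, 123.1 and 125.7 FPKM in the control, 137, 132 and 140 FPKM after IL-4, 134, 129 and 136 FPKM after LPS, and 138, 127 and 143 FPKM after IL-4+LPS. All IL-4 and all LPS samples lay above the control samples. No comparison passed in the group-means fit, and of the 95% intervals of the 4 differences on the log2(FPKM + 1) scale the one reaching farthest from 0 ran from 0.01 to 0.28, for IL-4 against control (0.14, adjusted p = 0.0803). That difference passed with median scaling (0.17, adjusted p = 0.0435) and with a Tukey test per gene (adjusted p = 0.0491). Most rows fell after LPS, and the LPS difference of 0.11 stood 0.55 above the median of all rows, was 0.48 with median scaling (adjusted p = 3.12e-05) and was -0.04 with quantile normalization (adjusted p = 0.582). The LPS difference after IL-4 was 0.00 (-0.0037) and passed as 0.36 with median scaling (adjusted p = 0.000302).

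The fall of Itgb5 and the rise of Itgav under LPS were opposed, although the proteins pair. Itgav lies on chromosome 2 at 83724397 to 83806916 and pairs with beta 1, beta 3, beta 5, beta 6 and beta 8, and Itgb5 lies on chromosome 16 at 33829665 to 33949338. Itgav was at 12.4, 13.4 and 13.8 FPKM in the control, 15.1, 14.7 and 13.5 FPKM after IL-4, 52.5, 71.3 and 69.4 FPKM after LPS, and 34.5, 57.2 and 66.3 FPKM after IL-4+LPS. Replicate 1 was the lowest of both LPS-exposed groups. LPS raised Itgav by 2.19 (SE 0.20, adjusted p = 3.57e-06) and, after IL-4, by 1.75 (adjusted p = 2.24e-05). The antisense Gm13684 overlaps 5.90% of its exon bases. Itgb5 was at 69.2, 77.0 and 70.7 FPKM in the control and 67.7, 66.1 and 66.3 FPKM after IL-4. After LPS it was at 28.2, 27.7 and 23.9 FPKM, and after IL-4+LPS at 31.7, 24.4 and 25.3 FPKM. LPS lowered Itgb5 without IL-4 (-1.41, SE 0.10, adjusted p = 5.29e-07) and after it (-1.27, adjusted p = 1.31e-06). Neither gene passed for IL-4, with differences of 0.12 for Itgav (95% interval -0.33 to 0.57, adjusted p = 0.691) and -0.11 for Itgb5 (-0.33 to 0.11, adjusted p = 0.413). Over the 12 samples their log2 levels had r = -0.984, the lowest of any pair of members, and Itga5 with Itgav had r = 0.975.

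Ratios within the samples bore on these chains as well. With LPS the log2 of Itgb5 to Itgb1 changed by -1.43 and that of Itgb2 to Itgb1 by -0.52 (both exact permutation p = 0.005, adjusted p = 0.01). IL-4 raised the log2 of Itgb2 to Itgb1 by 0.77 (exact permutation p = 0.005, adjusted p = 0.01). The Itgav to Itga5 ratio rose with LPS by 0.43 in log2 (exact permutation p = 0.015, adjusted p = 0.0262), and by 0.67 over replicates 2 and 3. For Itga4 to Itga5 the LPS difference was 0.20 (exact permutation p = 0.585, adjusted p = 0.63) and the IL-4 difference -0.76 (exact permutation p = 0.085, adjusted p = 0.119). The latter averaged -1.74 without LPS and 0.22 with it, a contrast that was not tested as a ratio.

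Among all members, 4 were higher and 3 lower after LPS against control, beside 16.9% of all 11191 rows higher and 57.7% lower (74.6% in either direction). The 4 were Itgal, Itga4, Itga5 and Itgav, and the 3 were Itga6, Itgb2 and Itgb5. With samples scaled to a common median, the share of higher rows among all calls went from 22.60% to 39.97%, with quantile normalization to 40.2%, and these 7 members kept their direction and call. The count of lower members was 5 without LPS replicate 1, with Itgam and Itgax added. For IL-4 against control, 2 members were higher (Itgax and Itgb2) and 4 lower (Itgal, Itgam, Itga4 and Itga6), beside 16% and 21% of all rows (37% in either direction). Both comparisons share the 3 control samples. The members' median difference was -0.09 for LPS, where all rows had -0.44, and 0.0029 for IL-4, where all rows had -0.05.

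After IL-4 pretreatment, LPS raised Itgal, Itga4, Itga5 and Itgav (4 members) and lowered Itga6, Itgb2 and Itgb5 (3 members), beside 15% and 57.9% of all rows (72.9% in either direction). The share of higher rows among calls was 20.6%, and 39.3% with median scaling and 37.1% with quantile normalization. Among LPS-exposed cells, IL-4 pretreatment left 2 members higher (Itgax and Itgb2) and 3 lower (Itgal, Itgam and Itga6), beside 15% and 15.8% of all rows (30.9% in either direction). Among the members Itgal and Itga4 passed the interaction test, both with a larger LPS response after IL-4 on the log2(FPKM + 1) scale, beside 4.58% of rows with a higher and 4.63% with a lower interaction (9.2% in either direction). In limma 0 members had a lower interaction past the threshold. At an unadjusted p under 0.05, 4 were higher (Itgal, Itga4, Itga6 and Itgb2) and 1 lower (Itga5).

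**Figure D3:**
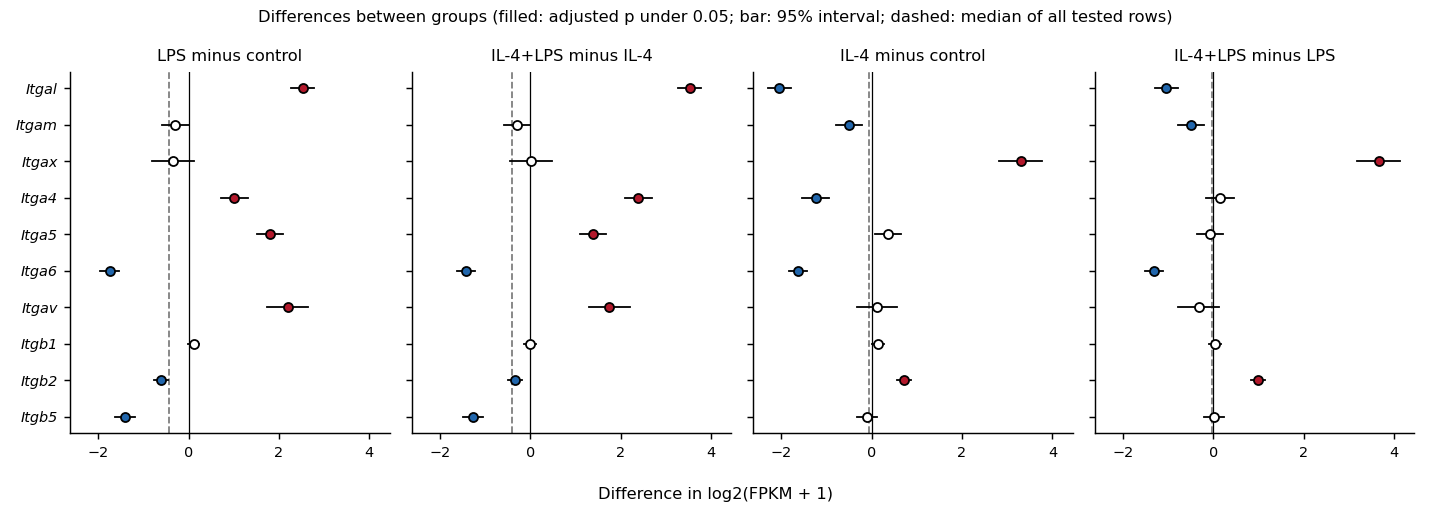
Differences in log2(FPKM + 1) of the 10 subunits in 4 comparisons, with 95% intervals. Filled points have a limma adjusted p under 0.05, and the dashed line is the median of all 11191 tested rows, at -0.44 for LPS minus control and -0.05 for IL-4 minus control.

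The order of levels also differed between conditions. In the control it ran Itgb2, Itgam, Itgb1, Itgb5, Itgax, Itga5, Itga6, Itga4, Itgav and Itgal by mean FPKM, where Itgax overlapped with Itga5, Itga5 with Itga6, and Itga4 with Itgav. After IL-4, Itgax moved to the second place and Itga4 to the ninth, with no overlap between neighbors, and the highest mean was 819 times the lowest. After LPS the factor was 38.9, with Itga5, Itgav and Itgal in the fourth to sixth places and overlaps only between Itga4, Itgb5 and Itgax. In IL-4+LPS samples Itgax was second and Itga6 last, with Itgb1 and Itgam overlapping, and Itgav and Itga4.

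Of 17 other integrin subunits in the tables, 8 reached the expression minimum. Against control, LPS raised 3 of them and lowered 2 (5 and 2 with quantile normalization), and IL-4 raised 3 and lowered 3. The shares over all rows were 16.9% higher and 57.7% lower for LPS, and 16% and 21% for IL-4. Itgb8, a beta chain that pairs with alpha v to activate latent TGF-beta, was at 0.0575, 0.0861 and 0.0872 FPKM in the control. It was at 1.33, 0.809 and 1.11 FPKM after IL-4, 8.10, 9.84 and 10.5 FPKM after LPS, and 30.9, 37.2 and 39.9 FPKM after IL-4+LPS. LPS raised Itgb8 by 3.28 on the log2(FPKM + 1) scale (SE 0.13, adjusted p = 9.59e-09). Itgb3, a further partner of alpha v, went the other way under LPS, at 3.62, 4.13 and 4.57 FPKM in the control and 0.636, 1.06 and 1.27 FPKM after LPS. Its difference was -1.37 for LPS (adjusted p = 1.04e-05) and 2.11 for IL-4 (adjusted p = 2.61e-06), with 21.01, 21.49 and 20.50 FPKM after IL-4. Thus 2 beta partners of alpha v, Itgb3 and Itgb5, fell under LPS while Itgb8 rose. Itga1, a collagen-binding chain, rose with LPS by 0.79 (adjusted p = 0.00101), from at most 0.108 FPKM to 0.502, 1.24 and 1.01 FPKM. Itga1 reached 1 FPKM only in LPS-exposed samples and Itgb8 only in treated samples. Both were tested through groups where they were high, so their place among the raised subunits partly follows from the filter. Itga9 fell with IL-4 (-1.48, adjusted p = 7.39e-06) from between 2.35 and 2.47 FPKM.

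**Figure D4:**
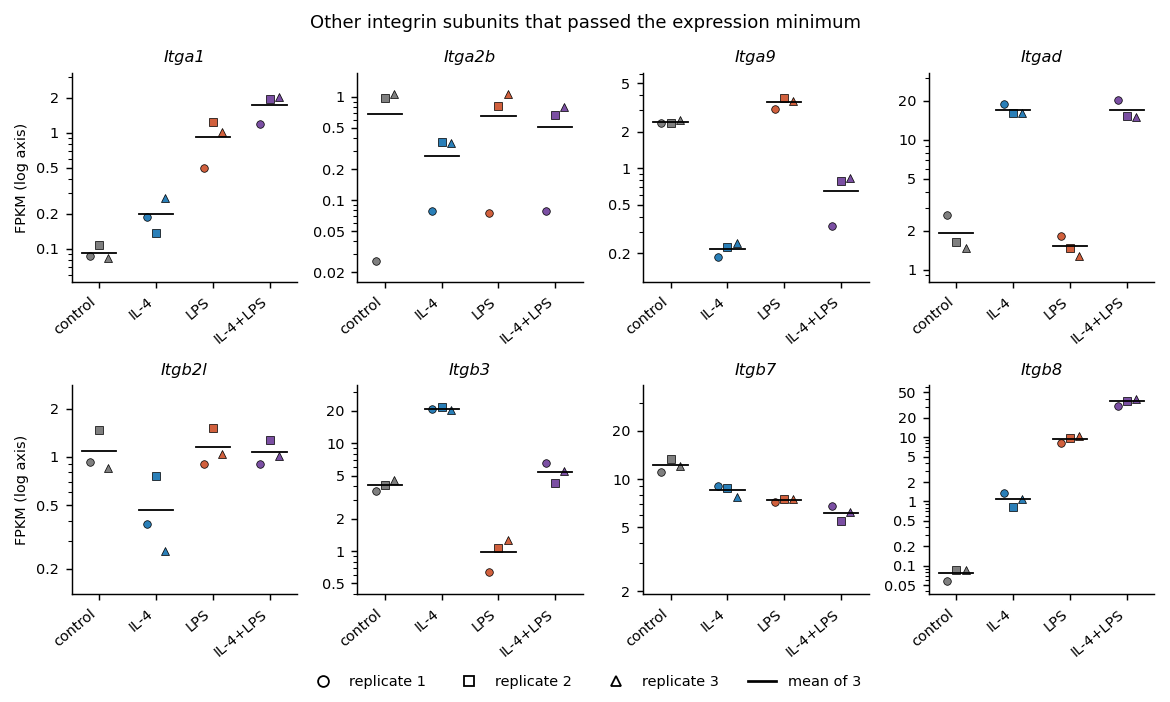
FPKM on a log axis of the 8 further integrin subunits that reached 1 FPKM in at least 1 sample, with 1 symbol per replicate and a line at the mean of 3. Itgad shows the step with IL-4 seen for Itgax, and Itgb8 is between 30.9 and 39.9 FPKM in the IL-4+LPS samples.

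Of 18 listed ligands of integrins 12 were tested, and against control LPS raised 5 and lowered 3 (5 and 1 with median scaling) while IL-4 raised 2 and lowered 2. Beside these, LPS raised 16.9% and lowered 57.7% of all rows, and IL-4 raised 16% and lowered 21%. F11r and Tnc reached 1 FPKM only in LPS-exposed samples, Fn1 only in samples with IL-4, and Icam4 only in IL-4+LPS samples. These genes were tested through the groups where they were high, so the counts of raised ligands partly follow from the filter. Icam1, the ligand of LFA-1 and Mac-1, was at 30.9, 37.9 and 35.8 FPKM in the control, 15.3, 16.9 and 15.2 FPKM after IL-4, 828, 1167 and 1114 FPKM after LPS, and 1409, 2266 and 2195 FPKM after IL-4+LPS. It rose with LPS by 4.84 (adjusted p = 9.37e-09), and fell with IL-4 (-1.09, adjusted p = 0.00109). Vcam1, the ligand of VLA-4, rose with LPS by 4.22 (adjusted p = 2.53e-06), from between 0.989 and 4.79 FPKM to between 49.9 and 61.0 FPKM. C3, the source of iC3b, rose by 3.22 (adjusted p = 2.82e-07). Fn1, fibronectin, went from at most 0.306 FPKM in the control to between 18.4 and 20.8 FPKM after IL-4 (4.05, adjusted p = 3.69e-10). Thbs1, thrombospondin 1, fell with IL-4 (-4.10, adjusted p = 3.37e-06), from between 20.1 and 42.5 FPKM to between 0.486 and 1.32 FPKM.

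Of 14 listed activators of integrins 10 were tested, with 2 higher and 5 lower after LPS (4 and 3 with median scaling) and 0 higher and 4 lower after IL-4, in limma. At an unadjusted p under 0.05, 0 were higher and 5 lower after IL-4. Of all 11191 rows, 16.9% passed as higher and 57.7% as lower after LPS, and 16% and 21% after IL-4. Rassf5 (RAPL), an effector of Rap1 that binds LFA-1, fell with LPS (-2.52, adjusted p = 5.74e-09), from 11.4, 13.1 and 12.4 FPKM to 1.54, 1.24 and 1.18 FPKM, and with IL-4 (-0.62, adjusted p = 0.000402). The GTPase Rap1b rose with LPS by 1.23 (adjusted p = 1.25e-07), and Fermt3, kindlin-3, had -0.84 (adjusted p = 9.57e-06). Fyb, the adaptor ADAP, fell with IL-4 (-2.02, adjusted p = 1.64e-05), from between 160 and 200 FPKM to between 38.04 and 51.60 FPKM. Rasgrp2, a Rap1 exchange factor, passed as lower with IL-4 (-0.44, adjusted p = 0.0458), but not under median scaling or quantile normalization. It reached 1 FPKM only in the control samples and was tested through them.

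Each of 5 listed inhibitors was tested, with 4 lower after LPS and 2 after IL-4 and 0 higher in either. Of all rows, 57.7% were lower and 16.9% higher after LPS, and 21% lower and 16% higher after IL-4. At an unadjusted p under 0.05, 0 were higher after LPS and 0 after IL-4 in limma. Sipa1, a Rap GTPase-activating protein, had differences of -1.55 for LPS (adjusted p = 5.82e-07) and -0.54 for IL-4 (adjusted p = 0.00375). Dok1 had -0.64 for LPS (adjusted p = 0.000224) and -0.43 for IL-4 (adjusted p = 0.0081), and Itgb1bp1 (ICAP-1) had -0.59 for LPS (adjusted p = 2.02e-05). The last stood at -0.15 from the median of all rows under LPS. Among 18 tested of 19 genes of proximal signaling, 9 were higher and 5 lower after LPS, and 2 higher and 9 lower after IL-4. With median scaling the LPS split was 13 higher and 2 lower, and with quantile normalization 9 and 2. Src rose with LPS by 4.43 (adjusted p = 4.44e-07), from 2.70, 3.21 and 2.82 FPKM to 53.0, 107 and 100.2 FPKM. Fgr rose with LPS by 2.18 (adjusted p = 0.000138) and fell with IL-4 (-1.28, adjusted p = 0.0125). Ptk2b, also called Pyk2, fell with IL-4 (-0.86, adjusted p = 0.00339).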

How the data were processed

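RNA-seq of 12 samples was analysed from 1 table per sample with an FPKM for each gene row. According to the submitters' processing notes, the authors deposited FPKM values made with TopHat2 2.0.7 and Cufflinks 2.0.2 on mm10, from paired reads with default parameters. Read counts were not used here, so the absolute depth is unknown, no counting interval is given, and the low-value steps gave only relative depth. Strand use in counting is not given in the sources used here.

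Samples were grouped by the treatment in the labels. Rows with at least 1 FPKM in at least 1 sample (11191 of 23847) entered limma 3.58.1 in R 4.3.3 on log2(FPKM + 1), with a group-means model over all 4 groups and an intensity trend. Benjamini-Hochberg adjustment ran over all rows within each of 5 comparisons, at 0.05. A log2 difference on this scale understates the change of low genes. Subunit ratios were tested by exact permutation, with adjustment over 14 tests. Likeness is Pearson's r over 12 samples, among 10254 rows with a mean of at least 1 FPKM. Scripts were tested on simulated data. A Tukey test per gene, which the study states for its IL-4 time course, was run as an alternative. Its p-value is adjusted over the pairs of groups within a gene and not over rows. The LPS dose is that of the labels, as the study's methods give it as a molar concentration.

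The members, lists and tests were chosen with earlier results of these data known. All 10 members are named. From 5 lists fixed with them (other subunits, ligands, activators, inhibitors and proximal signaling), at most 3 genes per list with the largest passing change for LPS and for IL-4 against control are named, as are the 3 genes most like each of Itgal, Itgam, Itgax and Itgb2, and the marker genes. Itgad is also named as a neighbor of Itgax. A gene that the rule names in the proximal signaling list is not reported here.

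Replicate numbers come from the labels. Deviations of same-numbered samples from the group means correlated above 0.1 in every pair only between LPS and IL-4+LPS (0.386, 0.181 and 0.119). There the numbers were taken as possible pairs, but the limma differences in Results come from fits without a block. A replicate block, fit over all 4 groups as an alternative, changed no member call between LPS and IL-4+LPS. Over all 18 pairs the mean was 0.124. Gene positions in mm10 are those of the deposited tables, and all 10 overlap the same-named protein-coding gene of GENCODE M21. Promoters were matched by symbol to RefSeq for 7 of 10 members. Alternatives were another pseudocount, filters, scalings, models and left-out samples.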

Additional observations from a re-analysis of the deposited data

Results flagged for a closer look

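The LPS response of 2 members differed by IL-4 pretreatment in the interaction test of limma. For Itgal the response was larger by 1.00 in log2(FPKM + 1) after IL-4 (adjusted p = 0.00402, and 0.93 to 1.11 with 1 sample left out at a time), from mean levels of 6.81 FPKM in the control, 0.899 FPKM after IL-4, 43.9 FPKM after LPS and 20.9 FPKM after IL-4+LPS. For Itga4 it was larger by 1.39 (adjusted p = 0.00156, and 1.26 to 1.52 with 1 sample left out), with mean levels of 15.3, 5.97, 31.9 and 35.3 FPKM in that order. In both genes the IL-4 level before LPS lay below the control in 3 of 3 samples. For Itga4 the LPS and IL-4+LPS samples overlapped, and for Itgal they did not. In FPKM the mean difference with LPS was smaller after IL-4 for Itgal (20.0, against 37.1 without IL-4). For Itga4 it was larger after IL-4 (29.3, against 16.5).

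The same test passed for 6 of the 22 genes named by their large changes in the other 5 lists, beside 9.2% of all rows. Those genes were picked by changes in the same control, IL-4 and LPS samples that enter the interaction. Their count therefore cannot be compared with the share of all rows. In the proximal signaling list 1 gene passed as higher and 2 as lower, none of them named by the rule. For Itgb8, the difference on the log2(FPKM + 1) scale was 0.87 (adjusted p = 0.0123), but the ratio of mean FPKM with and without LPS was 123 from a control at 0.0769 FPKM and 33.2 after IL-4. On the ratio scale the Itgb8 response was thus smaller after IL-4, in the opposite direction. The response was larger after IL-4 by 1.99 for Icam1 (adjusted p = 0.00114) and by 2.66 for Vcam1 (adjusted p = 0.0106), both of which rose with LPS. It differed by 2.71 for Thbs1 (adjusted p = 0.00278), whose LPS difference was -1.09 without IL-4 and 1.62 after it. It differed by 1.05 for Rassf5 (adjusted p = 0.000722) and by 0.93 for Dok1 (adjusted p = 0.0031), for both of which the LPS difference without IL-4 was negative. No test for single outlying samples was run on groups of 3. Causes were not tested.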

How the results depend on the processing

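Of 27 passing changes of members, 24 kept direction and call under every alternative run apart from a 2-fold minimum, and the exceptions were the falls of Itgam under IL-4 in both settings and of Itgb2 under LPS after IL-4. Of 1130 recomputed member values 1065 kept direction and call. The limits are 3 samples a group, no read counts, and a shift of all rows under LPS that 2 scalings remove only in part (medians of -0.14 and -0.12 in place of -0.44).

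With the replicate block, 5 members were lower after LPS (also over replicates 2 and 3 only, and without LPS replicate 1), where 3 were without it. The lower members added were Itgam and Itgax (adjusted p = 0.00109 and 0.0174 with the block). With the block Itgb1 also passed as higher after LPS (0.11, adjusted p = 0.0306). Outside LPS and IL-4+LPS the numbers were not taken as pairs, since same-number correlations fell as low as 0.0024, and over all pairs of groups a sample correlated best with its own number in 24 of 36 cases, a hint from the data and not from the design. Under IL-4, 4 were higher in place of 2 with the block and with median scaling (Itga5 and Itgb1 added, adjusted p = 0.00349 and 0.0163 with the block), and 1 with a 2-fold minimum, which also left 1 higher for IL-4 among LPS-exposed cells. Under the block and over replicates 2 and 3, 1 member (Itga5) had a lower interaction, where 0 had. Leaving out 1 sample at a time gave 3 to 5 lower members under LPS.

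Directions turned in values that had not passed, save that of Itgb2, and 1 of them (Itgb1) passed in its new direction. Median scaling gave Itgam 0.07 (0.0748) and Itgax 0.0164 for LPS against control, Itgam 0.0719, Itgb1 0.3581 (which passed, adjusted p = 0.000302) and Itgb2 0.0301 for LPS after IL-4, and Itgam -0.0029 for the interaction. Quantile normalization gave Itgb1 -0.0447 for LPS and -0.0164 for IL-4 among LPS-exposed cells, and Itgax -0.0857 for LPS after IL-4. Replicates 2 and 3 alone gave Itgax -0.000805 for LPS after IL-4, and Itga5 0.0312 and Itgb5 -0.0474 for IL-4 among LPS-exposed cells.

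Leaving out 1 sample at a time gave ranges across 0 for LPS after IL-4 in Itgax (-0.0631 to 0.0869) and Itgb1 (-0.0404 to 0.0437), for IL-4 among LPS-exposed cells in Itga5 (-0.1335 to 0.0512), Itgb1 (-0.0055 to 0.0786) and Itgb5 (-0.09 to 0.0918), and for the interaction of Itgam (-0.1073 to 0.1407).

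The block on the subunit ratios allowed 64 splits, so the smallest possible p was 0.0312. In 8 of 14 tests that p was reached, which gave an adjusted p of 0.0547, and none passed. Without the block the tests had passed for log2 differences of 3.9149, 0.4276, -1.4272 and -0.5235 under LPS and 4.0266, -1.5051 and 0.7704 under IL-4. The 8 tests at the smallest p were not all among those that had passed. Itgav to Itga5 under LPS, at 0.4287, had passed without the block (exact permutation adjusted p = 0.0262) but did not reach the smallest p with it (adjusted p = 0.146). Over replicates 2 and 3 that ratio had 0.6732, and the summed alpha chains to Itgb2 under IL-4 turned to 0.0353.

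With 1 sample left out the ratios ranged from 0.0795 to 0.2139 for Itgax to Itgam under LPS, and under IL-4 from -0.3119 to -0.1693 for Itgav to Itga5, from -0.187 to -0.0927 for Itgb5 to Itgb1 and from -0.0441 to 0.0511 for the summed alpha chains to Itgb2. Each of the first 3 passed without 1 sample, which was control replicate 1, IL-4 replicate 1 and IL-4+LPS replicate 1.

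Over all rows, LPS against control called 1887 higher and 6462 lower, and 2966 and 4454 with median scaling and 2903 and 4326 with quantile normalization. After IL-4 the LPS counts were 1682 and 6474, against 2629 and 4057 and 2461 and 4173. The interaction counts of 512 and 518 were 1145 and 1095 with the block, 1481 and 1386 over replicates 2 and 3, 325 and 334 without IL-4 replicate 3, and 311 and 334 without LPS replicate 3. IL-4 among LPS-exposed cells had 1771 lower rows, and 2667 with the block and 2901 over replicates 2 and 3. With a 2-fold minimum the counts were 883 and 2121 for LPS, 309 and 391 for IL-4, 842 and 1691 for LPS after IL-4, 303 and 332 for IL-4 among LPS-exposed cells, and 146 and 155 for the interaction. The interaction was not run with only the compared groups or with the Tukey test, and the ratios over replicates 2 and 3 have no attainable p under the threshold. Causes of these changes were not tested.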
